A study of Homo sapiens with 12 samples.

Results

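The 10 genes followed here are used as markers of naive human pluripotency: DPPA3, DPPA5, TFCP2L1, SUSD2, FGF4, ZFP57, ZFP42, KHDC1L, ARGFX and NLRP7. They were chosen by name, and all 10 have a row among the 53717 genes of the raw count table. The RNA came from H9 cells, an established line of human embryonic stem cells, grown in RSeT, a commercial medium sold for holding such cells in a naive-like state. By lipofection, the cells received 25 nM of a fluorescein-labelled oligonucleotide. ASO-L1 was made to target transcripts of the LINE1 retrotransposon in antisense, sO-L1 is its sense counterpart, and ASO-Ctr has a non-specific sequence. All 3 groups, controls included, also had 0.7 uM Trans-ISRIB, an inhibitor of the integrated stress response, 5 uM Emricasan, a caspase inhibitor, and 10 uM Y-27632, a ROCK inhibitor, for the first 24 h. Labelled cells were sorted after 48 h. Each group has 4 poly(A) libraries, numbered 1 to 4, and the labels do not say whether these came from separate cultures, so p-values measure the spread between these libraries, which may be technical. Every library is of H9, and no group without oligo, in another medium or of another line was analysed here. The submitters call the cells naive, and without naive and primed cells to set them against, the levels below describe the cells and do not place them in a state.

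Human pluripotent cells can be held in states that resemble the embryo before or after implantation, called naive and primed. Naive cells share transcription factors such as TFCP2L1 and members of the KLF family, which help to keep the state, while POU5F1, SOX2 and NANOG are expressed in both states. Among the genes followed here, TFCP2L1 is a transcription factor of the CP2 family and ZFP42 (REX1) a zinc finger protein long used as a marker of embryonic stem cells. DPPA3 (STELLA) limits the maintenance of DNA methylation in the early embryo, and ZFP57 is a KRAB zinc finger protein that keeps methylation at imprinted loci. FGF4 is a secreted growth factor of the fibroblast growth factor family, and SUSD2 is a membrane protein used to sort naive cells. DPPA5 and KHDC1L are related to KH-domain RNA-binding proteins, NLRP7 is an NLR protein with a maternal role in the human embryo, and ARGFX is a homeobox gene of the early human embryo.

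The stretch of 250 bases before the gene start is held by RefSeq (build GRCh38.p14) for 7 of the 10 genes, all but FGF4, SUSD2 and ARGFX. Those of 4 genes are shown because they span the range seen below: DPPA3 and TFCP2L1 were higher with ASO-L1, DPPA5 fell the most, and ZFP42 had the highest level. They are written 5′ to 3′ on the strand of the gene and end at its start: DPPA3 chr12:7711183-7711432 on the plus strand, TFCP2L1 chr2:121285203-121285452 on the minus strand, DPPA5 chr6:73354277-73354526 on the minus strand, and ZFP42 chr4:187995521-187995770 on the plus strand. Capitals mark a match, on either strand, of CACCC, the core of the box bound by KLF factors, or of CCNGNNNNNNCCNG, a form of the site bound by TFCP2L1.
DPPA3: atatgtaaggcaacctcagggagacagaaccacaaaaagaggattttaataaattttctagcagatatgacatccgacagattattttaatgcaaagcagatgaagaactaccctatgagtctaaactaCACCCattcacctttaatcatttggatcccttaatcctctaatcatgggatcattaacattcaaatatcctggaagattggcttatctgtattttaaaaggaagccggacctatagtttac
TFCP2L1: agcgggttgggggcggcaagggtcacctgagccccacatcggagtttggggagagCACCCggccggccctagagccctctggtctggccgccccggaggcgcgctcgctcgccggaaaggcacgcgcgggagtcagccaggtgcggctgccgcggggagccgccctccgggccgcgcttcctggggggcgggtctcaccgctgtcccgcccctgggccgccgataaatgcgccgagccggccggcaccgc
DPPA5: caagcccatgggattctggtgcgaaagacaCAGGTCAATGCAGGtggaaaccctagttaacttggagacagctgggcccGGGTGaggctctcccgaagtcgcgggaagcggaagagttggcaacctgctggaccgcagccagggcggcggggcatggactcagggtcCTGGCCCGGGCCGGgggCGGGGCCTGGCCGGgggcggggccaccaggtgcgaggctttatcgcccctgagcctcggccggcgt
ZFP42: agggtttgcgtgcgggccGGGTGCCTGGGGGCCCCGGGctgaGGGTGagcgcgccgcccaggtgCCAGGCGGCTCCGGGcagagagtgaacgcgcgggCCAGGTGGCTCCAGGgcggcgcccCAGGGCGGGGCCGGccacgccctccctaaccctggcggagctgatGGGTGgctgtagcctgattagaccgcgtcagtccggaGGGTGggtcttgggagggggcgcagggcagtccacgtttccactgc
CACCC lies in all 7 of these windows, and in 53.7% of the 27305 human promoter windows of this length. CCNGNNNNNNCCNG lies in 2 of the 7, with 7 matches in ZFP42 and 3 in DPPA5, some of them overlapping each other or CACCC, and in 34.5% of all windows. The octamer ATGCAAAT, which POU5F1 can bind, lies in 0 of the 7 and in 1.66% of all windows. The DPPA3 window is 35.6% G and C and the TFCP2L1 window 76.8%. A match describes letters and says nothing about binding in these cells.

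Levels are given as CPM, counts of a gene scaled to a fixed library total and adjusted between libraries with TMM factors. Library totals ran between 22.8 and 55.1 M counts, so that the 3 reads allowed by a count of 0 correspond to 0.0534 to 0.128 CPM, for counting error only. KHDC1L had 1, 1, 0 and 1 reads in ASO-L1 libraries 1 to 4, no read in any sO-L1 library, and 0, 2, 0 and 0 reads in ASO-Ctr libraries. ARGFX had 2, 0, 3 and 1 reads in ASO-L1, 0, 5, 3 and 1 in sO-L1 and 0, 2, 0 and 0 in ASO-Ctr. Both genes were therefore below 0.5 CPM in all 12 libraries, which makes 2 of the 10 markers near zero. At a stricter limit of 0.1 CPM only KHDC1L counts as near zero, and at 1 CPM ZFP57 is added, which makes 3. ZFP57 was measured at 0.612, 0.630, 0.618 and 0.290 CPM in ASO-L1, at 0.458, 0.249, 0.353 and 0.327 CPM in sO-L1 and at 0.214, 0.334, 0.220 and 0.753 CPM in ASO-Ctr. It was under 0.5 CPM in 8 of 12 libraries, and no library gave it more than 26 reads. The other 7 markers were detected in every library, with at least 85 reads each.

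Divided by the exon length in kb (GENCODE 29), and ordered by the means in sO-L1 and ASO-Ctr, ZFP42 had the highest level, followed by DPPA3, DPPA5, NLRP7, FGF4, TFCP2L1, SUSD2 and ZFP57. KHDC1L and ARGFX came last, in an order that differed between the groups. On this scale ZFP42 averaged 92.5 ± 9.44 CPM per kb in ASO-L1, 102 ± 12.4 in sO-L1 and 102 ± 9.94 in ASO-Ctr (SD, n = 4 each), above every other marker in every library. DPPA3 came next, with 37.8 ± 3.82 CPM per kb in ASO-L1, 33.5 ± 4.71 in sO-L1 and 28.3 ± 3.09 in ASO-Ctr, and its libraries did not overlap those of DPPA5. Among neighbours in this order, DPPA5 and NLRP7 overlapped in all 3 groups, NLRP7 and FGF4 in sO-L1 and ASO-Ctr, FGF4 and TFCP2L1 in ASO-L1, and KHDC1L and ARGFX in all 3. In ASO-L1 the order of DPPA5 and NLRP7 was turned, with means of 5.05 CPM per kb for DPPA5 and 6.68 for NLRP7. SUSD2, the surface marker, stood at 0.888 ± 0.306 CPM per kb in ASO-L1, 0.849 ± 0.228 in sO-L1 and 0.847 ± 0.277 in ASO-Ctr. The exon lengths are those of a GRCh38 annotation, while the reads were counted on hg19, so the order of close neighbours may depend on the gene model.

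**Figure D1:**
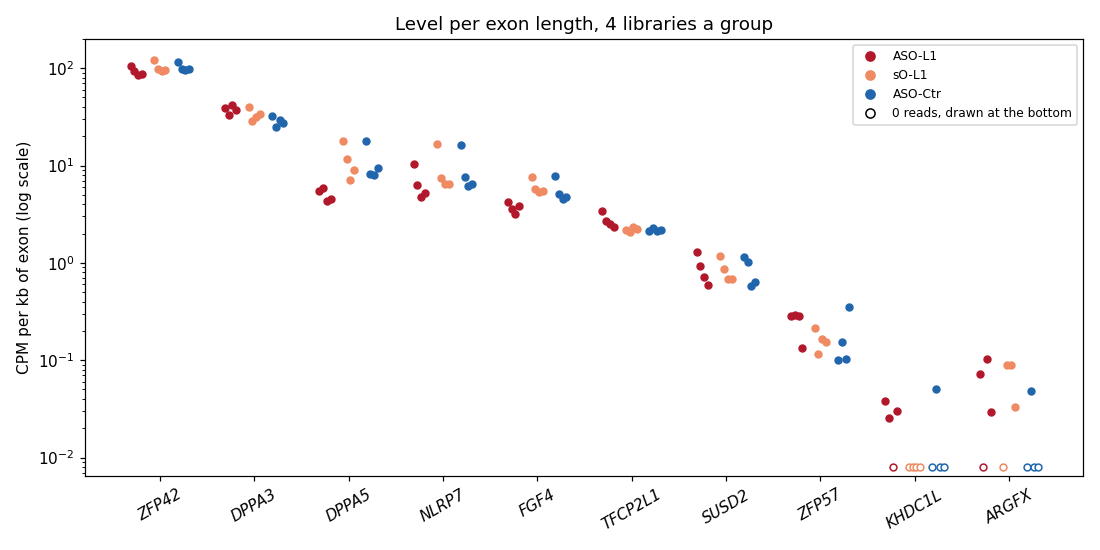
Level of each of the 10 markers in CPM per kb of exon (vertical log axis), with 1 point per library and 4 libraries in each of ASO-L1, sO-L1 and ASO-Ctr, left to right within a gene; open circles at the bottom are libraries with 0 reads. ZFP42 lies above all others and KHDC1L and ARGFX lie at the bottom, with many libraries at 0.

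Whether the markers differ between cells given the antisense LINE1 oligo and cells given the control oligo is the first comparison. Of the 8 markers with enough reads to be tested, 2 rose (DPPA3 and TFCP2L1), 4 fell (DPPA5, FGF4, NLRP7 and ZFP42) and 2 were not called (SUSD2 and ZFP57) in ASO-L1 against ASO-Ctr, by edgeR's quasi-likelihood test at an adjusted p under 0.05. This rule called 44.3% of all 17264 genes tested, 21.2% as higher and 23.1% as lower, so a large share of called genes was the background in this comparison. The median log2 fold change of the 8 markers was -0.04, and that of all genes tested was -0.0028. DPPA3, DPPA5, TFCP2L1 and FGF4 also had no overlap between the 4 ASO-L1 and the 4 ASO-Ctr libraries, which held for 33.3% of all genes tested. The RNA is of whole sorted populations, in which fewer cells expressing a gene and less RNA of it per cell cannot be told apart.

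DPPA3 had 41.7, 35.6, 45.6 and 40.3 CPM in ASO-L1 libraries 1 to 4, and 34.4, 26.6, 31.6 and 29.3 CPM in ASO-Ctr libraries. Every ASO-L1 library lay above every ASO-Ctr library, and ASO-L1 library 2 came closest to the control range. The fold change was 1.34 (nominal 95% interval 1.22 to 1.47; adjusted p = 5.15e-05), and the difference within a replicate number was between 0.28 and 0.53 on the log2 scale, higher in 4 of 4. TFCP2L1 had 32.0, 25.5, 23.3 and 21.7 CPM in ASO-L1 and 19.8, 21.3, 19.9 and 20.5 CPM in ASO-Ctr. The ASO-Ctr libraries were close to each other, while ASO-L1 library 1 stood highest and library 4 came near to the control range. TFCP2L1 was 1.24-fold higher (1.09 to 1.42; adjusted p = 0.00784), with within-number differences of 0.69, 0.26, 0.22 and 0.08 on the log2 scale. Without ASO-L1 library 1 its log2 fold change was 0.20, against 0.32 with all libraries, and it was still called (adjusted p = 0.0105).

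DPPA5 had 3.71, 4.02, 2.92 and 3.07 CPM in ASO-L1, against 12.1, 5.61, 5.47 and 6.43 CPM in ASO-Ctr. All 4 ASO-L1 libraries were lower than all ASO-Ctr libraries, and ASO-Ctr library 1 stood far above the other controls. It was 2.05-fold lower in ASO-L1 (1.63 to 2.58; adjusted p = 5.29e-05), the largest change among the 8 markers tested. FGF4, the ligand, had 13.7, 11.5, 10.3 and 12.5 CPM in ASO-L1 and 25.5, 16.5, 14.7 and 15.3 CPM in ASO-Ctr. The groups did not overlap, and library 1 was again the highest in both. FGF4 was 1.47-fold lower (1.30 to 1.66; adjusted p = 4.92e-05) and lower in 4 of 4 replicate numbers.

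NLRP7 had 40.5, 24.9, 18.5 and 20.6 CPM in ASO-L1 and 63.1, 29.6, 23.9 and 25.3 CPM in ASO-Ctr. Here the groups overlapped, and library 1 was well above the others in each group. Apart from library 1, ASO-L1 library 2 (24.9 CPM) also lay above ASO-Ctr library 3 (23.9 CPM). Every ASO-L1 library was below the ASO-Ctr library of its number. Within replicate numbers the log2 differences ran between -0.64 and -0.25, and NLRP7 was 1.31-fold lower (1.18 to 1.45; adjusted p = 0.000288). ZFP42 had 281, 246, 226 and 231 CPM in ASO-L1 and 311, 262, 253 and 260 CPM in ASO-Ctr. It too was lower in 4 of 4 replicate numbers with overlapping groups, and its change was small, 1.1-fold lower (1.05 to 1.17; adjusted p = 0.00477). The calls of NLRP7 and ZFP42 rest on comparing libraries of the same number. In a fit with no replicate block their adjusted p was 0.351 and 0.227, and without all libraries of number 3 that of ZFP42 was 0.0570.

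SUSD2 had 6.84, 4.94, 3.81 and 3.16 CPM in ASO-L1, and 6.07, 5.34, 3.08 and 3.39 CPM in ASO-Ctr. Both groups covered nearly the same range, and the ratio was 1.04 (0.881 to 1.23; adjusted p = 0.720). ZFP57 gave a ratio of 1.39 with a wide interval of 0.758 to 2.55 (adjusted p = 0.376). Its ASO-L1 libraries were above the ASO-Ctr libraries in 3 of 4 replicate numbers, and number 4 went the other way. Without ASO-Ctr library 4, which had the highest ZFP57 level, it was called higher (log2 fold change 1.13, adjusted p = 0.0340), and likewise without all libraries of number 4 (1.22, adjusted p = 0.0215). KHDC1L, with 5 reads over all libraries, had too few for a test. ARGFX averaged 0.0510 CPM in ASO-L1, 0.0525 CPM in sO-L1 and 0.0119 CPM in ASO-Ctr, and an exact two-sided permutation test gave p = 0.257 against ASO-Ctr and p = 0.943 against sO-L1 (0.386 and 0.943 after adjustment over 3 comparisons), where the smallest p possible is 0.0286. This test treats the libraries as unpaired and does not use the replicate number.

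**Figure D2:**
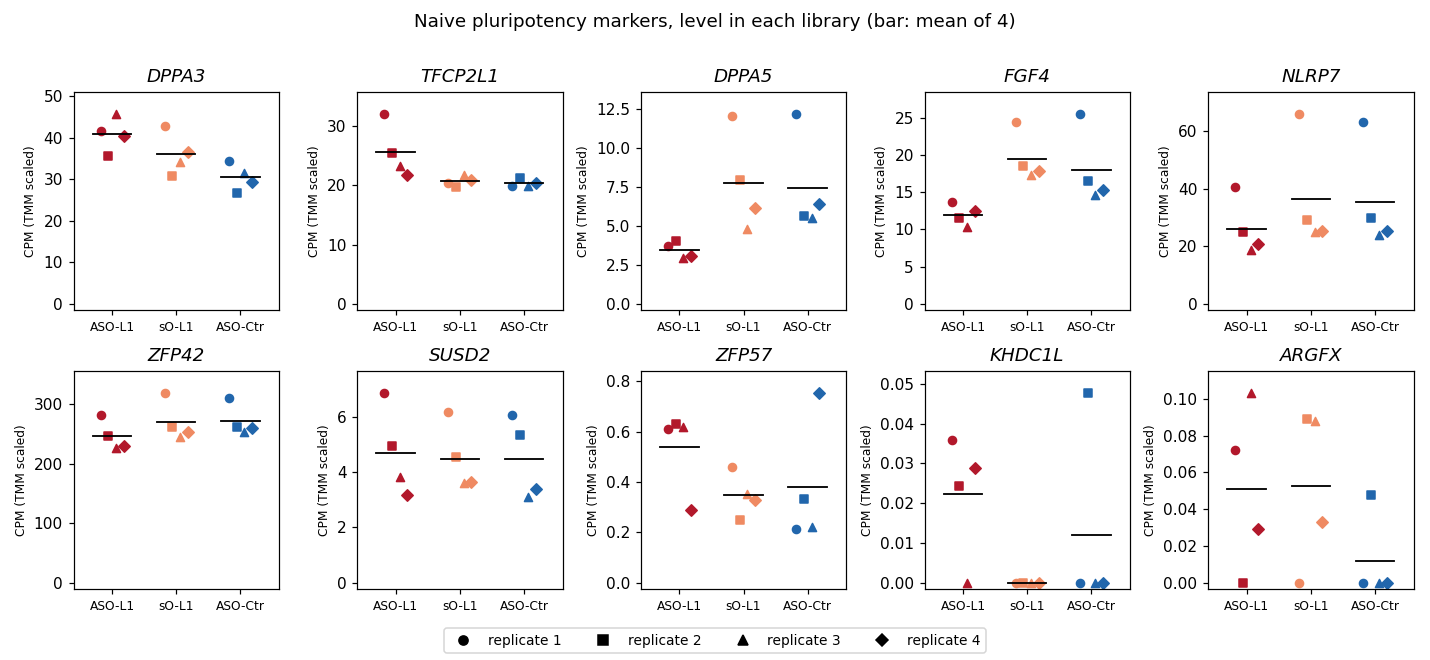
Level of each marker in CPM (vertical axes start at or just below 0 and differ between panels) in ASO-L1, sO-L1 and ASO-Ctr, with 1 point per library, the symbol giving the replicate number and the bar the mean of 4. Library 1, drawn as a circle, is the highest of its group for NLRP7, FGF4, ZFP42 and SUSD2 in all 3 groups, and DPPA5 and FGF4 in ASO-L1 lie below both other groups.

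Against the sense oligo sO-L1, the same 8 markers were compared, with the ASO-L1 libraries shared between both comparisons. Again 6 of 8 were called, 2 higher and 4 lower in ASO-L1, beside a background of 44% of all genes tested (21.1% higher and 22.9% lower). The median log2 fold change of the 8 was -0.04, against -0.0032 over all genes tested. DPPA5 and FGF4 were the 2 markers whose ASO-L1 and sO-L1 libraries did not overlap, as for 32.1% of all genes tested.

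DPPA5 in sO-L1 libraries 1 to 4 had 12, 7.97, 4.79 and 6.12 CPM, so the ASO-L1 libraries with 3.71, 4.02, 2.92 and 3.07 CPM were all lower. It was 2.16-fold lower in ASO-L1 (1.72 to 2.70; adjusted p = 2.25e-05). FGF4 had 13.7, 11.5, 10.3 and 12.5 CPM in ASO-L1 and 24.4, 18.5, 17.3 and 17.9 CPM in sO-L1, and was 1.62-fold lower (1.43 to 1.82; adjusted p = 4.47e-06). Both genes were lower in 4 of 4 replicate numbers. NLRP7 had 65.8, 29, 25 and 25.3 CPM in sO-L1, and ASO-L1 was 1.33-fold lower (1.2 to 1.48; adjusted p = 0.000159). ZFP42 had 319, 262, 246 and 254 CPM in sO-L1, and ASO-L1 was 1.1-fold lower (1.04 to 1.16; adjusted p = 0.008). As in the comparison with ASO-Ctr, the calls of NLRP7 and ZFP42 were lost with no replicate block, at adjusted p = 0.302 and 0.254, and that of ZFP42 also without number 3, at 0.0570.

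TFCP2L1 had 20.4, 19.7, 21.7 and 20.9 CPM in sO-L1. All were below ASO-L1 libraries 1 to 3, and sO-L1 library 3 and ASO-L1 library 4 met at 21.7 CPM. The ratio was 1.23 (1.08 to 1.40; adjusted p = 0.00992). Of 16 fits that each dropped a library or a number, 3 ended this call (without number 2, sO-L1 library 1 or sO-L1 library 2), with adjusted p up to 0.0685. Without ASO-L1 library 1 the log2 fold change was 0.18, against 0.30. DPPA3 had 42.8, 30.8, 34.2 and 36.6 CPM in sO-L1, which overlaps ASO-L1, and ASO-L1 was lower than sO-L1 in number 1 and higher in the other 3. Its ratio of 1.13 (1.03 to 1.24; adjusted p = 0.0276) was called, but 8 of the 16 such fits ended the call, with adjusted p up to 0.283. Those were the fits without number 2 or 3, without ASO-L1 library 2, 3 or 4, without sO-L1 library 2 or 3, and without ASO-Ctr library 2. Like the calls of NLRP7 and ZFP42, that of DPPA3 was also lost in edgeR with no replicate block (adjusted p = 0.197). It was lost as well with only the 2 groups fitted (adjusted p = 0.0719). Without ASO-L1 library 3 the log2 difference was 0.12, against 0.18 with all libraries. SUSD2 (1.04, interval 0.881 to 1.22, adjusted p = 0.730) and ZFP57 (1.58, interval 0.866 to 2.89, adjusted p = 0.207) were not called. ZFP57 was called without ASO-L1 library 4 (adjusted p = 0.0344).

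For this comparison the authors' deposited table gives log2 fold changes of -1.12 for DPPA5, -0.69 for FGF4, -0.41 for NLRP7, -0.13 for ZFP42, 0.30 for TFCP2L1 and 0.19 for DPPA3. Its adjusted p-values, in the authors' deposited table, are 0.000141 for DPPA5, 5.91e-05 for FGF4 and 0.00924 for TFCP2L1. In the authors' deposited table NLRP7 (0.0589), ZFP42 (0.0605) and DPPA3 (0.138) do not pass 0.05. The sources used here do not give how that test treated replicate numbers. DPPA5, FGF4 and TFCP2L1 are thus the markers called both in the fit here and in the authors' deposited table.

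**Figure D3:**
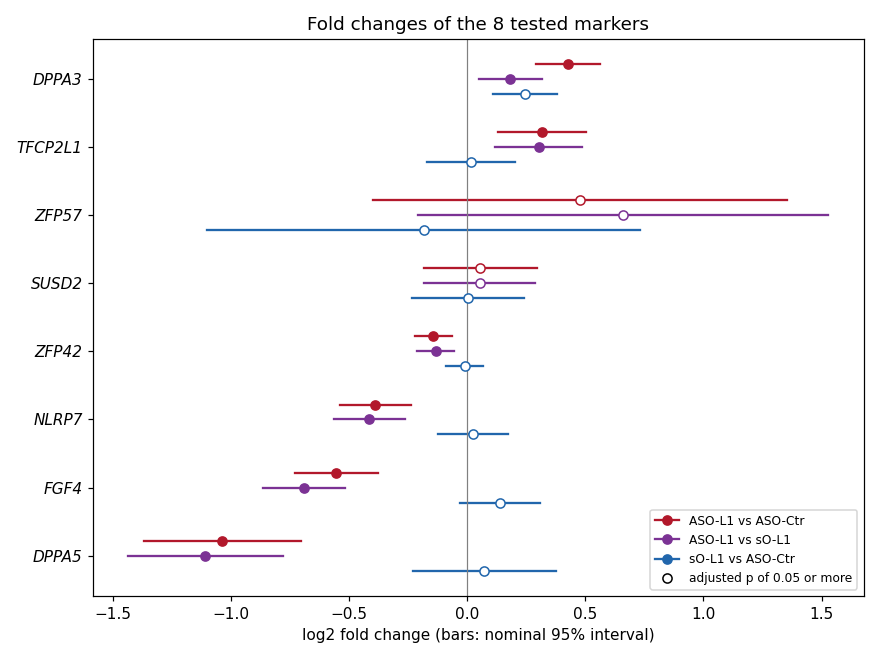
Log2 fold changes (horizontal axis) of the 8 tested markers with nominal 95% intervals in ASO-L1 vs ASO-Ctr, ASO-L1 vs sO-L1 and sO-L1 vs ASO-Ctr, top to bottom within a gene; filled points have an adjusted p under 0.05. DPPA5 and FGF4 lie left of 0 in both ASO-L1 comparisons, DPPA3 and TFCP2L1 lie right of 0, and ZFP57 has the widest intervals.

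The third comparison sets the sense oligo against the control oligo. None of the 8 tested markers was called in sO-L1 against ASO-Ctr by edgeR, where 0.29% of all genes tested were called (50 of 17264, with 1232 at an unadjusted p under 0.05). DESeq2 also called 0 of the 8, and 1 of the 8 had an unadjusted p under 0.05 in edgeR. DPPA3 had the lowest p among the markers, with 42.8, 30.8, 34.2 and 36.6 CPM in sO-L1 and 34.4, 26.6, 31.6 and 29.3 CPM in ASO-Ctr. It was higher in sO-L1 in 4 of 4 replicate numbers (ratio 1.18, interval 1.08 to 1.30, unadjusted p = 0.00151, adjusted p = 0.192). The groups overlapped for DPPA3 and the other 7 markers, where 3.23% of all genes tested had no overlap. Alone among the markers, DPPA3 passed in some other settings, at an adjusted p of 0.000362 when only these 2 groups were fitted, 0.0300 with limma on the deposited log2 table, 0.0358 without number 1 and 0.00250 without ASO-L1 library 1. FGF4 had a ratio of 1.1 (0.979 to 1.24; adjusted p = 0.801). The other 6 had ratios between 0.880 for ZFP57 and 1.05 for DPPA5. Intervals were narrow for ZFP42 (0.940 to 1.05) and wide for ZFP57 (0.466 to 1.66). DPPA3 thus stood in the order ASO-L1, sO-L1, ASO-Ctr by its means, 40.8 ± 4.13, 36.1 ± 5.08 and 30.5 ± 3.33 CPM (SD, n = 4 each).

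Levels of several markers also differed between replicate numbers, which was tested after the values were seen. Of the 8 markers 6 were called for the replicate number term by edgeR (3 degrees of freedom), beside 13.6% of all genes tested. NLRP7 differed the most (adjusted p = 4.53e-08), with a mean of 56.5 CPM over the 3 libraries numbered 1, against 27.8, 22.5 and 23.7 CPM over those numbered 2, 3 and 4. ZFP42 (adjusted p = 2.19e-04), SUSD2 (3.54e-04), FGF4 (0.00235), DPPA5 (0.00354) and DPPA3 (0.0161) were called as well. TFCP2L1 (0.578) and ZFP57 (0.957) were not. Number 1 exceeded the mean of the other numbers 2.29-fold for NLRP7, 1.80-fold for DPPA5, 1.61-fold for SUSD2, 1.42-fold for FGF4 and 1.22-fold for ZFP42. NLRP7, SUSD2, FGF4 and ZFP42 were highest in number 1 in all 3 groups, 4 of 8 markers, as were 7.34% of all genes tested. For NLRP7, SUSD2 and ZFP42 the step between number 1 and the rest was larger than the difference between any 2 oligo groups. What the numbers stand for is not given beyond a batch correction named for the log2 table.

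**Figure D4:**
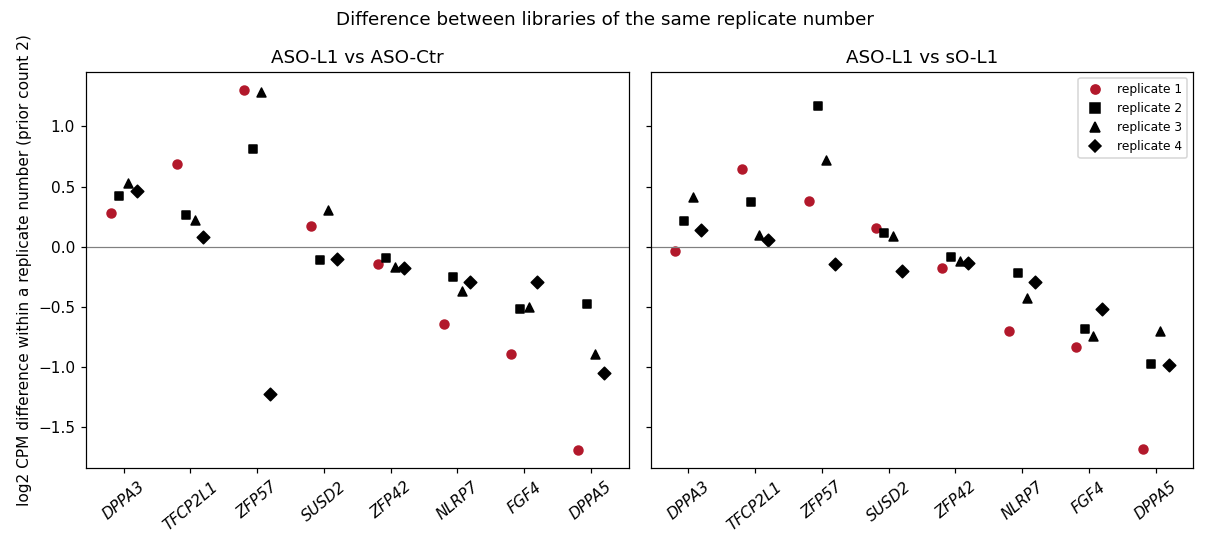
Log2 difference in CPM (prior count 2, vertical axis) between the libraries of the same replicate number, for ASO-L1 vs ASO-Ctr (left) and ASO-L1 vs sO-L1 (right), with number 1 in red. DPPA5, FGF4, NLRP7 and ZFP42 lie below 0 for all 4 numbers in both panels, and number 1 has the largest fall for DPPA5, FGF4 and NLRP7.

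To set the 10 markers in context, 21 other naive markers were read from the same fit. Of these, 16 were tested, and 7 rose, 5 fell and 4 were not called in ASO-L1 against ASO-Ctr (median log2 fold change 0.26). Against sO-L1 5 rose, 6 fell and 5 missed the threshold (median 0.05). This makes 75% and 68.8% called, beside 44.3% and 44% of all genes tested in these comparisons. KLF4, a transcription factor that supports naive pluripotency, averaged 47.5 ± 8.87 CPM in ASO-L1, 22.9 ± 3.57 in sO-L1 and 20.1 ± 3.03 in ASO-Ctr (SD, n = 4 each). It was 2.35-fold higher than with ASO-Ctr (2.09 to 2.65; adjusted p = 1.25e-08) and 2.08-fold higher than with sO-L1 (adjusted p = 4.60e-08). KLF2, of the same family, was 2.40-fold higher (adjusted p = 7.41e-07) and 2.21-fold higher (1.53e-06) in these comparisons. ST6GAL1, a sialyltransferase, was 1.46-fold lower in both (adjusted p = 5.58e-07 and 5.43e-07). KLF5 was 2.12-fold higher than with ASO-Ctr (3.73e-05) and 1.63-fold higher than with sO-L1 (0.00123). KLF17, among the factors most closely tied to human naive cells, averaged 0.0649 ± 0.0253 CPM in ASO-L1, 0.209 ± 0.216 in sO-L1 and 0.108 ± 0.0890 in ASO-Ctr. It was under 0.5 CPM in all 12 libraries, as were ESRRB, ALPP, OOEP and TRIM60, which makes 5 of 21, and these 4 are named after their values were seen.

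Primed markers moved in both directions too. Of 18 tested, 6 rose, 8 fell and 4 were not called in ASO-L1 against ASO-Ctr, and 6 rose, 7 fell and 5 were not called against sO-L1. The shares called were 77.8% and 72.2%, beside 44.3% and 44% of all genes tested. VIM, an intermediate filament protein, was 3.43-fold higher than with ASO-Ctr (adjusted p = 9.87e-09), and NLGN4X, a cell adhesion protein of synapses, 1.84-fold lower (4.24e-08). Of the 9 genes of core pluripotency 2 rose, 3 fell and 4 were not called in each of these comparisons, which makes 55.6% called, beside 44.3% and 44% of all genes tested. Against ASO-Ctr this count of 5 dropped to 2 without ASO-Ctr library 2, without number 2 or without number 4. It dropped to 3 without number 3, without ASO-L1 library 4, without ASO-Ctr library 4 or with no replicate block. Against sO-L1 the count dropped to 3 without ASO-L1 library 2 or 3, sO-L1 library 3 or 4, or ASO-Ctr library 3. It was also 3 without number 2, 3 or 4 and with only the 2 groups fitted, and 2 with no replicate block. The share of all genes called in each of these other fits is not given here. A drop particular to these 9 genes can therefore not be told apart from a general loss of calls. LIN28A, an RNA-binding protein, was 1.17-fold lower (0.000103) and DPPA4 1.14-fold higher (0.00107) against ASO-Ctr. POU5F1 averaged 1237 CPM in ASO-L1, 1193 in sO-L1 and 1167 in ASO-Ctr, and NANOG 144, 139 and 139 CPM. Neither was called against ASO-Ctr (ratio 1.06, adjusted p = 0.128, and ratio 1.04, adjusted p = 0.338), although POU5F1 was called higher without ASO-L1 library 1 (adjusted p = 0.000228). In sO-L1 against ASO-Ctr, KLF4 (ratio 1.13, adjusted p = 0.678) and KLF5 (ratio 1.30, adjusted p = 0.640) were not called.

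**Figure D5:**
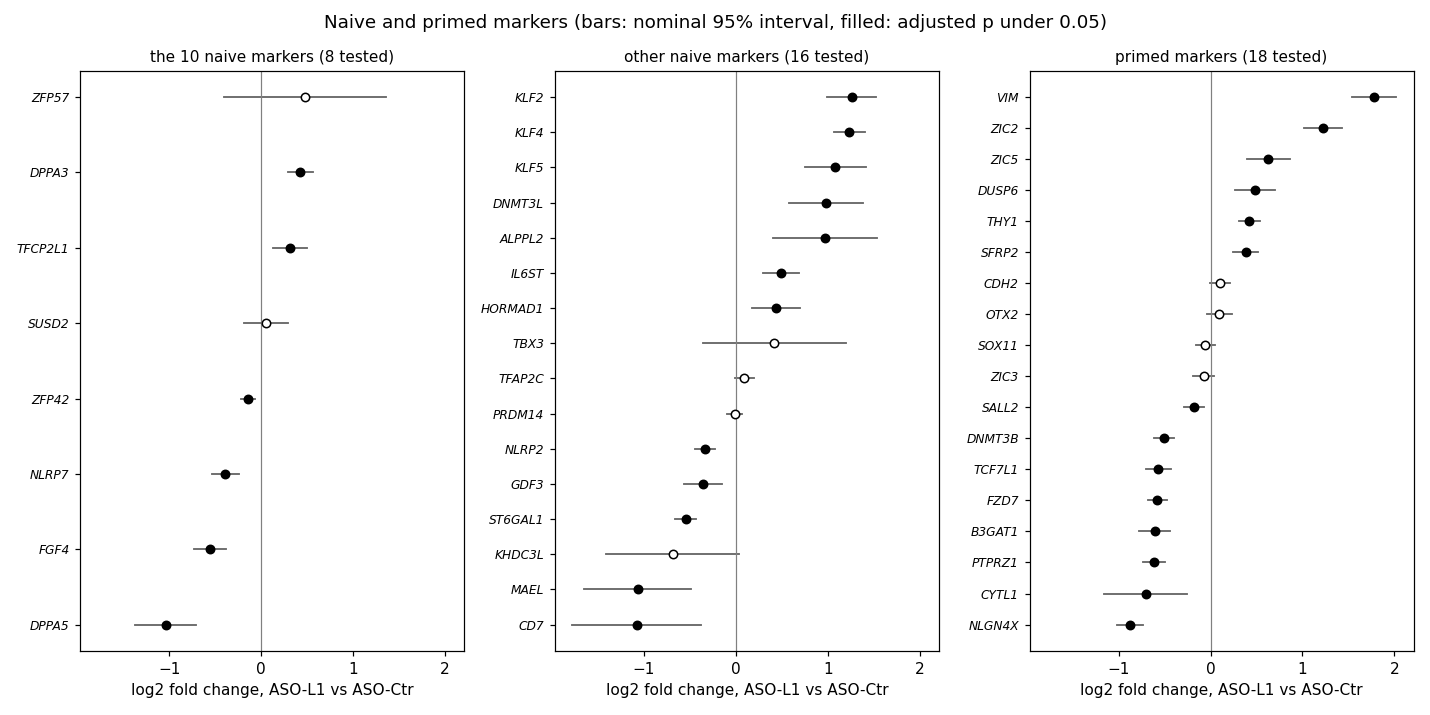
Log2 fold changes in ASO-L1 vs ASO-Ctr (horizontal axes, the same scale in each panel) with nominal 95% intervals for the 8 tested markers, 16 other naive markers and 18 primed markers, sorted by value; filled points have an adjusted p under 0.05. Each panel has called genes on both sides of 0, 2 higher and 4 lower on the left, 7 and 5 in the middle, and 6 and 8 on the right. In this comparison 44.3% of all genes tested were called.

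Markers of other cell types were read beside these results. Of 15 genes of the 8-cell stage in the table, 8 had no read in any library and 13 were under 0.5 CPM in all, and the summed level was 3.27 to 5.62 CPM in ASO-L1, 2.52 to 4.89 in sO-L1 and 2.80 to 5.00 in ASO-Ctr. Of 10 trophectoderm genes 6 were under 0.5 CPM throughout, CDX2 had no read, and the sum was 4.34 to 5.08, 2.35 to 5.47 and 3.51 to 4.53 CPM in the same order of groups. The 6 amnion genes summed to 5.94 to 9.87, 5.73 to 6.90 and 5.62 to 6.72 CPM. None of the 3 tested amnion genes was called in ASO-L1 against ASO-Ctr by edgeR. Of the tested 8-cell stage and trophectoderm genes, 1 each was called, named after its value was seen. CCNA1 (8-cell stage) was 1.28-fold higher (adjusted p = 0.0426) and GATA2 (trophectoderm) 1.78-fold higher (0.000909). This rule called 44.3% of all genes tested. In the other lists the sum differed between groups, and single genes, also named after their values were seen, were called in different directions. Of 6 neuroectoderm genes, 3 were under 0.5 CPM throughout and the sum was 527 to 603 CPM in ASO-L1, 424 to 528 in sO-L1 and 391 to 453 in ASO-Ctr. The 2 that were tested, NES (1.32-fold, adjusted p = 6.94e-07) and PAX6 (1.60-fold, 0.00429), were both higher in ASO-L1 than in ASO-Ctr. NES alone made up nearly all of the neuroectoderm sum. It ran between 524 and 601 CPM in ASO-L1, 423 and 526 in sO-L1, and 390 and 451 in ASO-Ctr. The sum therefore follows NES and does not describe the list as a whole. Of 7 primitive endoderm genes, 5 were under 0.5 CPM throughout and the sum was 9.54 to 11.8 CPM in ASO-L1, 17.9 to 20.8 in sO-L1 and 15.7 to 18.6 in ASO-Ctr. The 2 tested went opposite ways against ASO-Ctr, PDGFRA 1.86-fold lower (3.55e-07) and FOXA2 2.31-fold higher (0.000875). The 5 mesoderm genes in the table (3 under 0.5 CPM) summed to 18.5 to 30.6, 15.2 to 19.4 and 14 to 18.1 CPM, with MIXL1 1.53-fold higher (6.18e-06) and TBX6 not called (ratio 0.693, adjusted p = 0.0524). The 7 fibroblast genes (4 under 0.5 CPM, LUM with no read) summed to 44.4 to 58.4, 58.9 to 84.5 and 63.1 to 86.3 CPM, with COL1A2 1.66-fold lower (1.57e-06), and COL1A1 (0.210) and POSTN (0.958) not called. The part of such cells in the levels of the naive markers was not tested.

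Some markers have copies that could share their reads. DPPA3P2, a pseudogene of DPPA3, held 567 reads in ASO-L1, 580 in sO-L1 and 438 in ASO-Ctr, between 2.98 and 5.12 CPM per library, and was higher in ASO-L1 than in ASO-Ctr like DPPA3 itself (log2 fold change 0.36, adjusted p = 0.0453). Reads may be split between this pair, so the level of DPPA3 is uncertain to that extent. DPPA3P1 had 3 reads, ARGFXP2 32, and DPPA5P1, DPPA5P2, ARGFXP1 and KHDC1P1 had none. KHDC1, a relative of KHDC1L, was measured at 5.15 to 6.81 CPM and was not called. KHDC3L, of the same family, was under 0.5 CPM in 9 of 12 libraries. It was not called against ASO-Ctr by edgeR (ratio 0.620, adjusted p = 0.117). Against sO-L1, KHDC3L and DPPA5 were called lower, 2 of the 3 family genes tested, beside 44% of all genes tested. The authors' deposited table gives KHDC3L a log2 fold change of -1.03 against sO-L1 (adjusted p = 0.0268). NLRP7 overlaps NLRP2 on the opposite strand, and KHDC1L overlaps another gene on its own strand, per GENCODE 29. The library kit is directional, but the sources used here do not give whether strand was used in counting. NLRP2 fell as well, 1.26-fold against ASO-Ctr (adjusted p = 5.05e-05) and 1.29-fold against sO-L1 (2.02e-05).

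Genes with the most similar pattern were sought for the 3 markers with the lowest p against ASO-Ctr, among the 10549 genes whose mean count reached 200. Likeness was Pearson's r of log2 CPM over 12 libraries after centring on the replicate number, given as a description, since all 12 points share the oligo groups. FGF4 was most like NEFH (r = 0.996), TMC5 (0.991) and ZNF69 (0.990). DPPA5 was most like COG4 (0.992), CABYR (0.987) and MCCC1 (0.985), and DPPA3 most like MRPL27 (0.965), PSMD2 (0.963) and HDAC5 (0.959).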

How the data were processed

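The deposited table used for levels and tests holds raw counts per gene after the authors removed duplicate reads, per the labels. The submitters' processing notes name Trim Galore 0.4.0, TopHat2 2.0.13, featureCounts, Subread 1.5.0 and build hg19. The sources used here name no gene annotation. Duplicate removal compresses the levels of abundant genes most. A second table by the authors holds log2 normalized values, batch-corrected and filtered at a cutoff of 0.2 per the labels, and served as an alternative. The authors' comparison table gives log2 fold changes, p-values and adjusted p-values for ASO-L1 against sO-L1, and a deposited moderated score that was not used. No entry counts LINE1, so the targeted RNA was not measured here.

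All 12 libraries were fitted together in R 4.3.3 with edgeR 4.0.16 (TMM factors, filterByExpr at its minimum count of 10, two-sided quasi-likelihood test), with group and replicate number as terms. The filter kept 17264 of 35768 genes with a count, and 8 of the 10 markers. The biological coefficient of variation was 0.0634, with 6 residual and 10.8 prior degrees of freedom. Adjusted p-values are Benjamini-Hochberg values over all genes tested, called under 0.05, and intervals are nominal 95% t intervals. Alternatives used DESeq2 1.42.0, limma 3.58.1, other scaling and filters, and fits without a library or a replicate number. The procedure was also run on simulated counts, with the same spread for all genes and far fewer changed genes than were called here. The outcome of that run is not given and is not used as support.

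The replicate number was kept as a block because the labels name a batch correction and libraries of the same number deviated together. In the 10549 genes whose mean count reached 200, each gene was centred on the mean of its group. All 12 same-number pairs then had r of 0.216 to 0.725, and 21 of 24 best matches were the library's own number. The median for different numbers was -0.223. With this centring, positive r within numbers pushes the others below 0, so that median is not a separate result.

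All 10 markers are named, with other naive markers called (up to 4 with the smallest adjusted p) and KLF17, up to 2 called primed and core genes, POU5F1, NANOG, pseudogenes and relatives that could share reads, and the 3 most alike genes of 3 markers. The markers, lists and the near-zero limit of 0.5 CPM were chosen with earlier results of these data known.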

Additional observations from a re-analysis of the deposited data

Results flagged for a closer look

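In 13 of 66 groups of 4 libraries, 1 library lay so far from the others that its gap to the nearest, as a share of the group's range, passed the 95% critical value of Dixon's test, which chance does in about 1 in 20 groups. That share is given for each. Library 1 was the high one for DPPA5 in ASO-Ctr (0.857), FGF4 in sO-L1 (0.838) and ASO-Ctr (0.831), ZFP42 in ASO-Ctr (0.851) and NLRP7 in sO-L1 (0.902) and ASO-Ctr (0.854). These 6 groups belong to genes that differed between replicate numbers. ZFP57 had its low library, number 4, in ASO-L1 (0.948). KHDC1L (1) and ARGFX (1) in ASO-Ctr each had 2 reads in library 2 and none in the others, which by itself fixes the share at 1. Among genes set beside the markers, number 2 was the low library for ST6GAL1 (0.856) and NANOG (0.856) in sO-L1, and number 1 the high library for POU5F1 in sO-L1 (0.960) and KLF5 in ASO-L1 (0.870). Whether these libraries differ from the others for a technical reason was not tested.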

How the results depend on the processing

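Over the 8 tested markers and the other named genes, 1006 of 1058 values under an alternative kept their direction and their side of the threshold, 20 lost a call, 11 gained a call and 21 changed sign. DPPA5 and FGF4 stayed called in both ASO-L1 comparisons under every alternative run. With no replicate block, that is without pairing by number, 4 markers were called against ASO-Ctr, 3 against sO-L1 (DPPA5, TFCP2L1 and FGF4), 7 other naive markers against ASO-Ctr, and 17 genes in sO-L1 against ASO-Ctr. For the ASO-L1 comparisons the share of all genes called by that fit is not given here. Those counts therefore have no background to be read against. In sO-L1 against ASO-Ctr, 1 marker (DPPA3) was called with only these 2 groups fitted and with limma on the log2 table, and 0 to 1 with a library or number left out. The genes called there numbered 141 with no filter on low counts, 95 with DESeq2, 640 with the 2 groups alone, 209 with limma, and 10 (without number 2 or 3) to 410 (without ASO-L1 library 1) with a library or number left out. At 0.1 CPM the near-zero count was 1. Sign changes were all of values that were not called: SUSD2 was at -0.0030 with the 2 groups alone in sO-L1 against ASO-Ctr. With libraries left out it ran between -0.061 and 0.10 there, between -0.013 and 0.13 in ASO-L1 against ASO-Ctr, and between -0.015 and 0.13 in ASO-L1 against sO-L1. Likewise in sO-L1 against ASO-Ctr DPPA5 ran between -0.10 and 0.19, TFCP2L1 between -0.048 and 0.071, ZFP57 between -0.49 and 0.47, and NLRP7 between -0.036 and 0.069. The cause of these shifts was not tested. Depth limits KHDC1L, ARGFX and ZFP57, whose counts are too low for small changes to be seen.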

Other observations

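Other naive markers outside the naming rule, described after their values were seen, moved both ways in ASO-L1 against ASO-Ctr by edgeR. DNMT3L, a cofactor of DNA methylation, was 1.97-fold higher (1.49 to 2.61; adjusted p = 0.000500), and ALPPL2, an alkaline phosphatase, 1.96-fold higher (1.33 to 2.90; adjusted p = 0.00716). IL6ST, the shared receptor of the interleukin 6 family, was 1.41-fold higher (adjusted p = 0.000332), and HORMAD1, a protein of meiotic chromosomes, 1.35-fold higher (0.00909). MAEL, a protein of transposon silencing in the germ line, was 2.09-fold lower (1.40 to 3.14; adjusted p = 0.00466), CD7, a surface protein, 2.12-fold lower (1.30 to 3.44; 0.0137), and GDF3, a growth factor, 1.28-fold lower (0.00784). Against sO-L1, DNMT3L, IL6ST, MAEL, CD7 and GDF3 were called in the same directions. ALPPL2 (ratio 1.53, adjusted p = 0.0619) and HORMAD1 (ratio 1.04, adjusted p = 0.741) were not called against sO-L1. HORMAD1 had a ratio of 1.30 in sO-L1 against ASO-Ctr, which was not called (adjusted p = 0.372). PRDM14, a transcription factor, had a ratio of 0.990 (0.933 to 1.05), which was not called.

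ALPPL2, DNMT3L and HORMAD1 were highest in replicate number 1 in all 3 groups, like NLRP7. Their log2 level in number 1 exceeded the mean of the other numbers by 1.64, 1.59 and 1.2 (adjusted p = 9.04e-04, 4.12e-05 and 8.91e-06 for the replicate number term by edgeR). MAEL was also called for the term (1.41, adjusted p = 0.00151), and was highest in number 1 in 2 of 3 groups.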
